A study of Mus musculus with 298 samples.

Results

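Blood of mice in which a human BCR-ABL transgene had been silenced again was compared with blood of mice in which it had never been switched on. The data were gene-level RNA abundances in whole blood, and the comparison took the mean of weeks 12, 16 and 18 in each mouse. It used 21 libraries of 298 in the series, from 4 mice of the Tet-off then Tet-on cohort (TOTO, 12 libraries) and 3 control mice (9 libraries). All 7 mice were C57BL/6 SCLtTA/BCR-ABL animals of genotype tTA+/-, BCR-ABL+/-, aged 6 to 8 weeks at the start, so the controls carried the transgene too. Control mice drank tetracycline water at 0.5 g/L throughout. TOTO mice went without tetracycline for 6 weeks and then received it again for 12 weeks. TOTO mice 476 (male), 482, 483 and 545 (female) were all labelled sequencing batch 2022_A. Of the control mice, 488 (female) carried the same batch label, while 489 (female) and 490 (male) were labelled 2021_E.

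BCR-ABL is a constitutively active tyrosine kinase made by fusion of the BCR and ABL1 genes, and it drives chronic myeloid leukaemia (CML), a disease in which granulocytes and their precursors accumulate in blood. In this model a tetracycline-repressed activator is expressed from regulatory sequence of the stem cell gene Scl, so that removing tetracycline switches BCR-ABL on in blood-forming stem and progenitor cells, and giving it back switches the transgene off. Both groups were thus on tetracycline in the late weeks.

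The labels name the tissue as PBMC but describe RNA taken from whole blood. Haemoglobin transcripts made up 36.1 to 61.5% of TPM, a length-scaled share of the transcripts in a library, in the 21 libraries, so red cells were part of the sample. The neutrophil gene Csf3r, the receptor for granulocyte colony-stimulating factor, stood at 34.7 TPM or more after rescaling in each of the 7 mice. Which cells held the Csf3r RNA was not tested. Genes at 1 TPM or more numbered 8592 to 11621 per library. The haemoglobin share averaged 43.8, 53.3, 47.8 and 50.7% in the TOTO mice and 55.2, 52.4 and 44.6% in the controls (exact permutation p = 0.629). Late libraries from the same mouse correlated at a median of 0.98 and libraries from different mice at 0.970, and no 2 libraries of the series were identical. How deeply each library was sequenced cannot be read from TPM. Values below are TPM divided by a size factor per library (rescaled TPM), and differences are on the log2(rescaled TPM + 1) scale, TOTO minus control, which understates changes of genes near 1 TPM. In blood RNA, fewer cells of a type and less RNA per cell cannot be told apart.

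The first question was whether the transgene was silent in the late weeks. At week 6 human BCR-ABL transcripts stood at 3.99, 10.6, 18.3 and 3.12 rescaled TPM in TOTO mice 476, 482, 483 and 545, and were listed at 0 in the 3 control mice. In the late weeks the deposited values of mouse 476 were 0 in every library. Mice 482 and 483 had 0.236 and 0.260 TPM at week 12 and 0 afterwards, and mouse 545 had 0.524 TPM at week 18 alone. Among the controls, mouse 489 was at 0 throughout, and mice 488 and 490 had 0.277 and 0.632 TPM at week 18 alone. Thus 9 of 12 TOTO libraries and 7 of 9 control libraries were listed at 0, and the ranges of the groups overlapped. The difference was -0.02 ± 0.07 (SE), with a 95% interval of -0.19 to 0.14 and an exact two-sided permutation p of 0.743. With 4 mice against 3 there are 35 arrangements, so the smallest such p is 0.0571 and no single value can reach 0.05.

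The human ABL1 and BCR reads, counted on rows of their own, were also near 0. Human ABL1 averaged 0.107, 0.0597, 0.0722 and 0.170 TPM in the late libraries of the TOTO mice and 0.0577, 0.00475 and 0.0731 TPM in the controls. Before induction, at week 0, the TOTO libraries held 0.0737 to 0.129 TPM of it. After rescaling, each TOTO mouse lay above each control mouse for human ABL1, by 0.05 on the log2 scale (exact permutation p = 0.0571). Values above 0 occurred in never-induced blood too, in 40 of 57 control libraries for human ABL1, up to 0.165 TPM in deposited values. Control mouse 489 was at 0 in most of its libraries. The highest late TOTO library, of mouse 545 at week 16, held 0.203 TPM, above each control library. The mouse genes Bcr and Abl1, the normal counterparts, differed by -0.12 (95% interval -0.43 to 0.20) and 0.08 (-0.07 to 0.24).

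**Figure D1:**
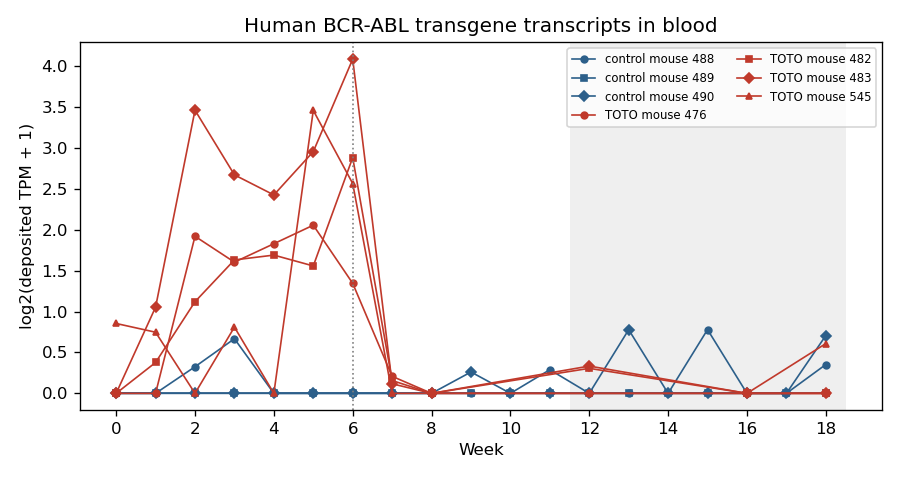
Human BCR-ABL transcripts by week in each mouse, as log2(deposited TPM + 1), with TOTO mice in red and control mice in blue; the dotted line marks week 6 and the shaded span the late weeks. TOTO mice reached up to 16.0 TPM at week 6 and were at 0 in 9 of 12 late libraries, against 7 of 9 in controls.

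Across the transcriptome, 1 gene of 10519 tested passed in the late weeks (limma, Benjamini-Hochberg adjusted p under 0.05), which is 0.00951% of them, and it was a processed pseudogene described below. At an unadjusted p under 0.05 there were 747 genes, 2.14% of those tested higher in TOTO mice and 4.96% lower. The smallest adjusted p of any other gene was 0.657. Of all genes, 97.9% lay within 0.5 of zero on the log2 scale and 99.6% within 1. The half-width of the 95% interval had a median of 0.20, so for a typical gene the data could bound a difference to about that size. This interval is not adjusted for the number of genes tested, so differences larger than that could also fail to pass. For the mature neutrophil and T cell genes described below the median half-width was larger, at 0.58 and 0.39. Genes for which the 4 TOTO mice did not overlap the 3 control mice made up 2.87% (302, higher) and 5.41% (569, lower) of those tested. This split depended on scaling too: there were 606 higher and 165 lower without haemoglobin, erythroid and Rn7s genes, and 214 higher and 12 lower on the TPM as deposited, so the shares given beside each list below hold for rescaled TPM.

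The same 7 mice had differed widely at week 6, the last week labelled as transgene on. There 2810 genes (26.7%) passed as higher and 2064 (19.6%) as lower in TOTO mice, and 59.7% of genes lay within 0.5. Whether the week 6 blood was drawn before tetracycline was given again is not stated in the labels. The direction of that split depended on scaling: 990 genes were higher and 4507 lower when haemoglobin, erythroid and Rn7s genes were taken out and the rest brought to a common sum. On the TPM as deposited 194 genes passed. Tested directly, the TOTO minus control difference changed between week 6 and the late weeks for 5452 genes, 2244 of them upward (21.3%) and 3208 downward (30.5%), and for 199 genes on the TPM as deposited. At week 0, before induction, 0.0% of genes passed (0 by limma, 516 at an unadjusted p under 0.05). Measured as each mouse's change from its own week 0, late TOTO and control blood again differed in 0.0% of genes (0 by limma, 443 at an unadjusted p under 0.05).

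**Figure D2:**
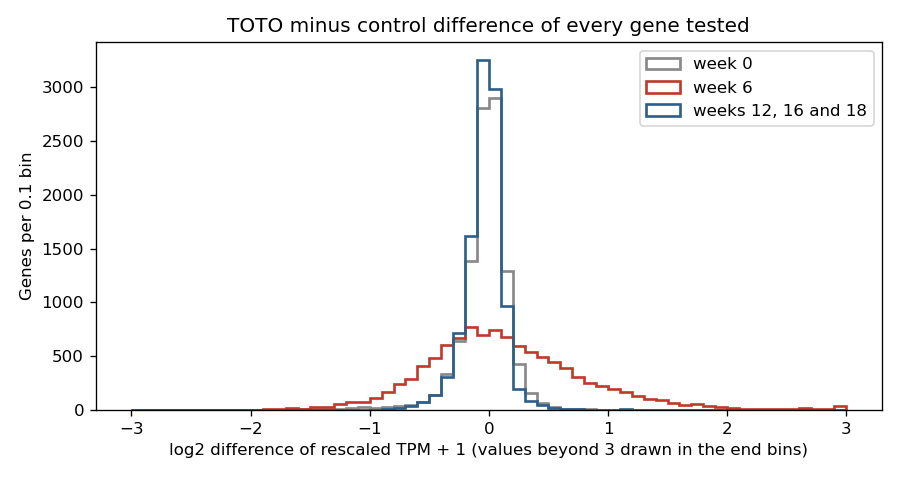
Number of genes by TOTO minus control difference (log2 of rescaled TPM + 1, bins of 0.1) at week 0, week 6 and in the late weeks. The SD of the differences was 0.25 at week 0, 0.70 at week 6 and 0.19 late, where each mouse is a mean of 3 libraries.

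The gene that passed was Rps13-ps2 (ENSMUSG00000069972.7), a processed pseudogene, which is an intronless copy of a messenger RNA inserted in the genome. Its level averaged 29.1, 11.0, 15.7 and 11.6 rescaled TPM in TOTO mice 476, 482, 483 and 545, and it was listed at 0 in all 9 late control libraries. In deposited TPM the 12 TOTO libraries ran from 8.34 to 71.1. The groups did not overlap, and the difference was 4.05 ± 0.30 (SE; adjusted p = 0.019 by limma), a size set by the pseudocount, since 1 group is at 0. Its parent Rps13 encodes a protein of the small ribosomal subunit. The first 150 bases of Rps13-ps2 (GRCm39, chr7:88179957-88180106, minus strand, written 5′ to 3′ along the pseudogene) are shown because they are also the start of the Rps13 coding sequence, with the start codon in capitals.
Rps13-ps2: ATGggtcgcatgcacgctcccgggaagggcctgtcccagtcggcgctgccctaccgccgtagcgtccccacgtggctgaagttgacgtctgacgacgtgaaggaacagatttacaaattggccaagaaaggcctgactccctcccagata
All 453 bases of the pseudogene (chr7, 88179654 to 88180106) matched the 589-base Rps13 messenger RNA from a gene elsewhere on the chromosome (115930740 to 115933430, minus strand), with 0 mismatches. Reads lying within that stretch therefore cannot be assigned to one or the other by sequence.

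Rps13 itself did not pass, with a difference of -0.01 (95% interval -0.21 to 0.19). Rps13-ps2 took 13.1, 5.21, 7.07 and 5.69% of the summed TPM of the pair in the TOTO mice and 0.0% in the controls. The sum of the pair stood at 231, 220.1, 246 and 225 rescaled TPM in TOTO mice and 218, 219.7 and 203 in controls, a difference of 0.11 (exact permutation p = 0.0571). The zeros were not a constant property of control blood: in weeks 13, 14, 15 and 17, outside the comparison, 6 of 12 control libraries had Rps13-ps2 above 0. The 12 include the week 17 library of mouse 490, which was low in the neutrophil, B cell and T cell lists described below. Before induction, at week 0, it stood at 9.76 and 20.1 rescaled TPM in TOTO mice 476 and 482, at 0 in mice 483 and 545, at 8.08 in control mouse 488 and at 0 in the other two. Over all weeks it was listed at 0 in 40 of 57 control and 8 of 48 TOTO libraries. Rps13-ps2 passed under 14 of the 26 alternatives tried, with adjusted p from 7.19e-08 to 0.542 by limma. It did not pass with controls averaged over weeks 12 to 18 (with or without week 17 of mouse 490), at week 12 or week 18 alone, with a pseudocount of 5, without a filter on low values, or with batch as a covariate. Nor did it pass without control mouse 488 (adjusted p = 0.0590) or 490 (0.228), or without TOTO mouse 482 (0.0507), 483 (0.155) or 545 (0.0711), again by limma.

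Genes that mark the disease were examined next. Ngp, Ltf, Camp and Lcn2 encode proteins of the secondary granules of neutrophils, and their transcripts are made in granulocyte precursors of the marrow. Ngp stood at 306, 216, 427 and 375 rescaled TPM in the TOTO mice at week 6, when the controls held 0.301 to 1.20. In the late weeks it was 0.167, 0.743, 0.457 and 0.466 TPM in the TOTO mice against 0.846, 0.499 and 0.915 in the controls, a difference of -0.27 (95% interval -0.61 to 0.07). All 4 TOTO mice had thus gone from 216 TPM or more to under 1 TPM, inside or below the control range. Late values of both groups lay below the pseudocount of 1, which compresses the difference and its interval.

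Camp, a cathelicidin, went from 61.3 to 77.8 TPM at week 6 to 0.0180, 0.226, 0.113 and 0.109 TPM late, against 0.208, 0.0870 and 0.108 in controls (difference -0.02, -0.21 to 0.16). These late Camp values lay far below the pseudocount of 1, which compresses their difference and interval. Saa3, an acute-phase serum amyloid A protein, was at 38.7 to 89.2 TPM at week 6 and at 0.579, 0.507, 0.0922 and 0.0554 TPM late, against 0.120, 2.45 and 0.523 in controls (difference -0.49, -1.35 to 0.37). Lcn2, the iron-siderophore binding lipocalin, stood at 11.7, 10.8, 8.19 and 10.1 TPM late, against 11.1, 15.0 and 31.0 in controls (difference -0.73, -1.44 to -0.01, adjusted p = 0.657). Control mouse 490 alone held the high Lcn2 value, and against control mouse 488, the control that shares the TOTO batch label, the difference was -0.12. Ltf, lactoferrin, was the exception among granule genes in its spread: mouse 476 held 33.1 TPM and the other TOTO mice 3.61, 2.03 and 4.07, against 5.23, 10.7 and 1.46 in controls (difference 0.31, -1.76 to 2.38). The interval of Ltf is too wide to place it above or below the control level.

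Basophils expand in CML, and their proteases Mcpt8 and Prss34 had differed by 3.04 and 2.75 at week 6. In the late weeks Mcpt8 stood at 0.867, 0.232, 0.199 and 0.528 TPM in TOTO mice and at 0.524, 0.677 and 0.118 in controls (difference 0.01, -0.44 to 0.47). Prss34 was at 0.428, 0.219, 0.179 and 0.382 TPM against 0.465, 0.287 and 0.123 (difference 0.02, -0.25 to 0.28). For both proteases the 2 groups overlapped, and all late values lay below the pseudocount of 1, which compresses differences and intervals.

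B cell genes had moved the opposite way. Fcer2a, the low-affinity IgE receptor CD23 of mature B cells, fell to 12.7, 11.5, 8.77 and 7.22 TPM in the TOTO mice at week 6, against 41.9 to 57.6 in controls. It was back at 53.8, 35.4, 49.5 and 46.8 TPM late, against 53.6, 42.3 and 41.2 in controls (difference 0.01, -0.36 to 0.39). Cr2, complement receptor CD21, followed the same course, from 5.51 to 6.44 TPM at week 6 to 19.8, 17.9, 19.3 and 18.0 late, against 18.3, 14.2 and 17.6 in controls (difference 0.16, -0.06 to 0.39). The plot of 8 such genes by mouse shows the week 6 values of TOTO mice apart from all others.

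**Figure D3:**
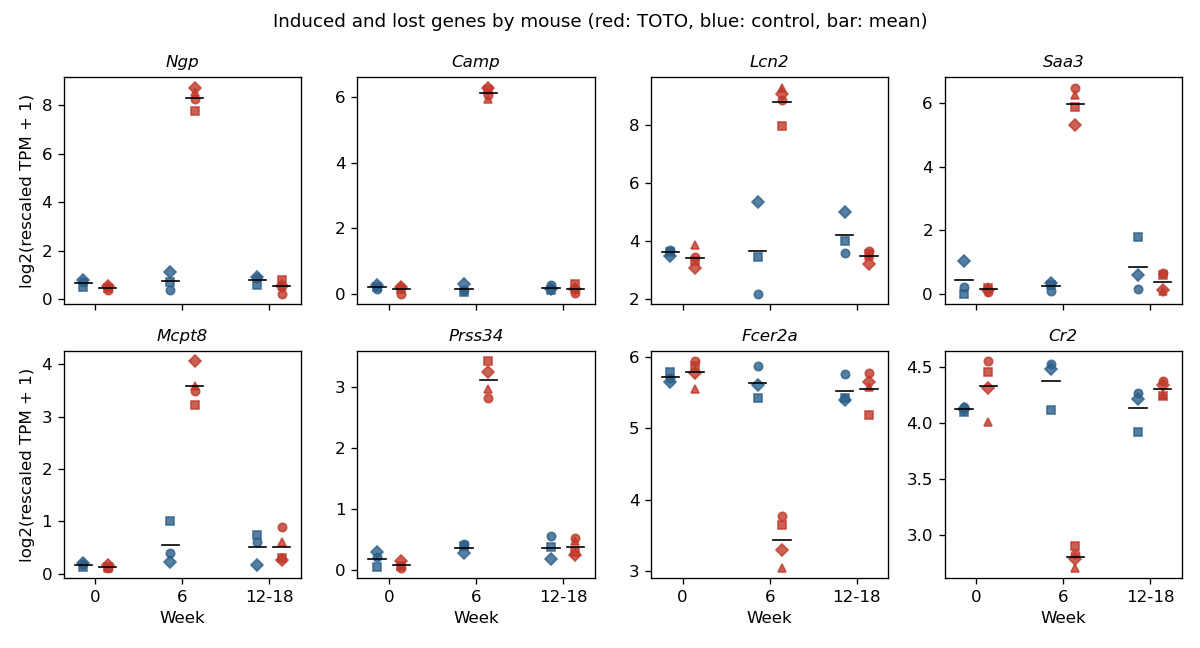
Levels of 6 genes that were high and 2 that were low in TOTO mice at week 6, as log2(rescaled TPM + 1) in each mouse at week 0, week 6 and as the mean of weeks 12, 16 and 18; bars are group means. Late TOTO values (red) overlap the late control values (blue) in each panel.

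To widen this beyond chosen genes, the 100 largest rises and 100 largest falls from week 0 to week 6 were taken from the 13 CML and TKI mice, which share no animal with the comparison (3746 genes rose and 2983 fell there by limma; 1 of these mice, 487, had hardly any transgene RNA). Of the 100 rises, 93 passed as higher in TOTO than in control blood at week 6, beside 26.7% of all genes, with a median difference of 2.69. In the late weeks their median was -0.32, and 86 of 100 lay below zero. By mouse the late medians were -0.38, -0.16, -0.50 and -0.34 in TOTO mice and -0.18, -0.15 and 0.42 in controls 488, 489 and 490, so the low TOTO median was read against 1 high control mouse. Without control mouse 490 the median was -0.14, and within batch 2022_A, against mouse 488, it was -0.09. Non-overlapping lower members numbered 11 of 100, beside 5.41% of all genes. Of the 100 falls, 96 passed as lower at week 6 (median -1.38), beside 19.6% of all genes. Late, their median was 0.07 with 2 of 100 not overlapping and higher, beside 2.87% of all genes. Rps13-ps2 was among the 100 rises and was the only member of either list that passed in the late weeks.

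The gene lists for blood cell types gave no gene that passed in the late weeks, and their medians are given as descriptions beside the median of all genes, -0.02. On the TPM as deposited the median of all genes was 0.19 and the medians of the cell type lists were higher too, with the neutrophil list at -0.31, the T cell list at 0.68, and the platelet, interferon, immediate early and STAT5 lists at 0.16, -0.08, -0.08 and 0.01. The mature neutrophil list had the lowest median. Of 26 mature neutrophil genes, 24 lay below zero late, with a median of -0.52, 10 at an unadjusted p under 0.05 and 6 not overlapping, beside 4.96% and 5.41% of all genes. At week 6 the same list had stood at 2.09, with 19 of 26 passing as higher. Week 6 counts of this kind, here and below, stand beside 26.7% of all genes passing as higher and 19.6% as lower. The 19 secondary and gelatinase granule genes had a late median of -0.40 (week 6: 2.90, 19 of 19 passing) and the 7 primary granule genes tested -0.33 (week 6: 1.78, 6 of 7 passing). Without control mouse 490 these 2 medians were -0.20 and -0.10, and within batch 2022_A -0.12 and -0.14.

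Within the neutrophil list, Il1b, the cytokine interleukin-1 beta, stood at 53.2, 60.8, 41.0 and 52.0 TPM in TOTO mice against 79.0, 68.3 and 113 in controls (difference -0.71 ± 0.20 SE, adjusted p = 0.657). Csf3r stood at 41.2, 53.7, 34.7 and 51.2 TPM against 60.9, 60.8 and 110 (difference -0.72 ± 0.25, adjusted p = 0.657). Each TOTO mouse was below each control mouse for these genes, and mouse 490 was the highest control in both. Trem1, an amplifying receptor of myeloid cells, and Mmp9, gelatinase B, differed by -0.53 and -0.71, again without overlap and without passing.

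The neutrophil difference was smaller without control mouse 490. Relative to the mean of the controls, the list stood at -0.58, -0.32, -0.77 and -0.48 in TOTO mice and at -0.19, -0.29 and 0.51 in control mice 488, 489 and 490. The week 18 library of mouse 490 held the list 2.08 above the median of all control libraries, against 0.19 and 0.65 in its week 12 and week 16 libraries, and that library's median correlation with the remaining late libraries, 0.945, was below that of each other library. High values of the list also occurred in this mouse outside the comparison, at weeks 4 (2.15), 6 (1.17), 13 (1.04) and 14 (1.62). Without the week 18 library the median was -0.32, with 5 genes not overlapping and lower, beside 437 of all 10519 genes in that setting. Without mouse 490 it was -0.28, and within batch 2022_A, against mouse 488, it was -0.26. The difference was -0.26, -0.54 and -0.78 at weeks 12, 16 and 18. In 6 other mice of batch 2022_A against 2 of 2021_E, at week 0, the neutrophil list differed by 0.78 with the batch label. In that comparison 0.019% of genes passed, the gene models Gm10222 and Gm26244, which are named here for their small number. Classical monocyte genes followed the same controls, with a late median of -0.32, of -0.02 without mouse 490 and of -0.10 within batch 2022_A.

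**Figure D4:**
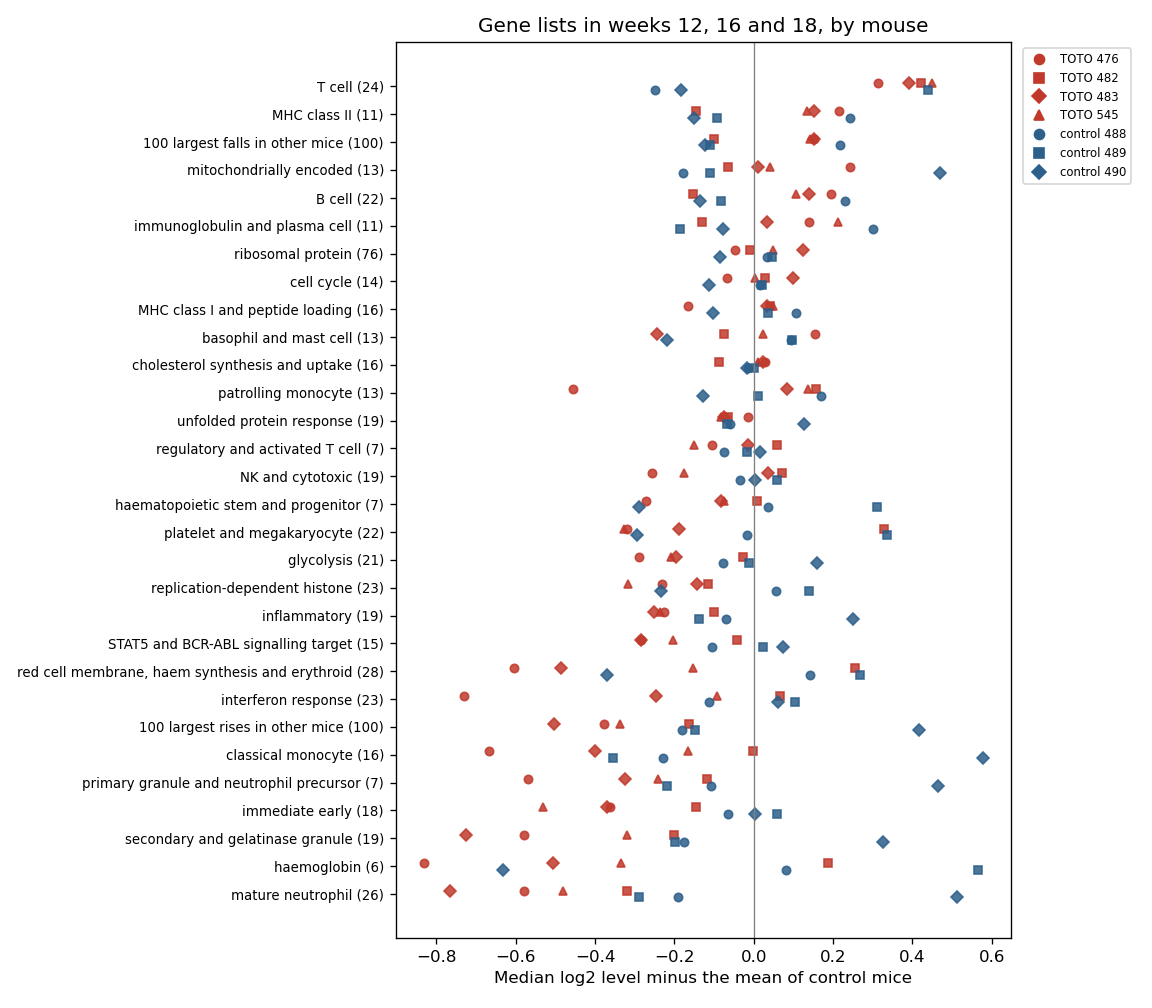
Median over the genes of each list of the late log2 level minus the mean of the 3 control mice, 1 point per mouse, with the number of genes tested in parentheses. The mature neutrophil list is at the bottom, where control mouse 490 stands to the right of the others, and the T cell list at the top, where control mouse 489 lies among the TOTO mice.

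Genes of T cells lay above control in the late weeks. All 24 members tested had positive differences, with a median of 0.41, 11 at an unadjusted p under 0.05 and 5 not overlapping, beside 2.14% and 2.87% of all genes, and none passed. At week 6 the list had stood at -0.42, with 9 of 24 passing as lower and 1 as higher, beside 19.6% and 26.7% of all genes. Between week 6 and the late weeks the difference changed upward for 20 of 24 and downward for 1 (limma). The shares of all genes were 21.3% upward and 30.5% downward. Cd4, the co-receptor of helper T cells, was at 4.69, 4.71, 4.62 and 4.50 TPM in TOTO mice and at 2.59, 3.84 and 2.25 in controls (difference 0.55 ± 0.13 SE, adjusted p = 0.657). Cd8a, part of the co-receptor of cytotoxic T cells, was at 6.62, 7.05, 6.37 and 6.98 TPM against 3.67, 6.11 and 4.03 (difference 0.49 ± 0.14, adjusted p = 0.657). Cd28, the co-stimulatory receptor, and Ms4a4b, a membrane protein of T cells, differed by 0.46 and 0.45. The 4 TOTO mice were close to each other in these genes, and control mouse 489 came nearest to them.

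By mouse the T cell list stood at 0.31, 0.42, 0.39 and 0.45 in TOTO mice and at -0.25, 0.44 and -0.18 in control mice 488, 489 and 490. Within batch 2022_A its median was 0.64, and it was 0.63 without mouse 489, 0.27 without mouse 488 and 0.31 without mouse 490. Without mouse 489, 8 genes of the transcriptome passed, all higher: Cd4, Cd8a, Cd27, Themis, Skap1, Tdrp, Slc28a2b and Rps13-ps2 (named for their small number). At weeks 12, 16 and 18 the list median was 0.42, 0.60 and 0.17. At week 0 it was 0.03, and in the other mice it differed by -0.17 with the batch label. As a check on other lymphocytes, the NK and cytotoxic list (19 tested) stood at -0.08, regulatory and activated T cell genes (7 tested) at -0.03, B cell genes (22 tested) at 0.07, immunoglobulin and plasma cell genes (11 tested) at 0.06 and MHC class II genes (11 tested) at 0.11. Within batch 2022_A the B cell, immunoglobulin and MHC class II medians had the opposite sign, at -0.15, -0.19 and -0.18. B cell genes had passed as lower in 21 of 22 cases at week 6, and none was non-overlapping late.

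Immediate early genes, which are transcribed soon after a stimulus, had a late median of -0.34. All 18 tested lay below zero, 7 of them not overlapping, beside 5.41% of all genes. Fos, a subunit of the transcription factor AP-1, stood at 32.5, 54.8, 35.6 and 30.9 TPM in TOTO mice and at 65.9, 60.1 and 74.2 in controls (difference -0.81 ± 0.20 SE, adjusted p = 0.657). Junb, another AP-1 subunit, and Dusp1, a phosphatase that turns off MAP kinases, differed by -0.54 and -0.62. At week 0 the Fos levels had been 33.0, 27.4, 28.0 and 47.9 TPM in TOTO mice and 20.2, 27.6 and 45.3 in controls (change from week 0 between groups -0.98, adjusted p = 0.993 by limma). The control mice thus held more Fos RNA late than at week 0, and 2 of the TOTO mice held less.

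Within batch 2022_A the immediate early median was -0.33. Without the week 18 library of mouse 490 it was -0.25 with 2 genes not overlapping and lower, beside 437 of all 10519 genes in that setting. Inflammatory genes (19 tested) had a median of -0.21, which was -0.09 without that library. Among them Nlrp3, the inflammasome sensor, stood at 3.98, 4.72, 3.56 and 3.99 TPM against 5.62, 5.50 and 7.51 (difference -0.50, adjusted p = 0.657), and the cytokine gene Osm, a STAT5 target, differed by -0.45. STAT5 is activated by BCR-ABL, and the 15 tested genes of that pathway stood at -0.23 late, after 0.77 at week 6, when 9 of them passed as higher. The late STAT5 median was -0.11 without control mouse 489, -0.15 without mouse 490 and -0.08 within batch 2022_A.

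**Figure D5:**
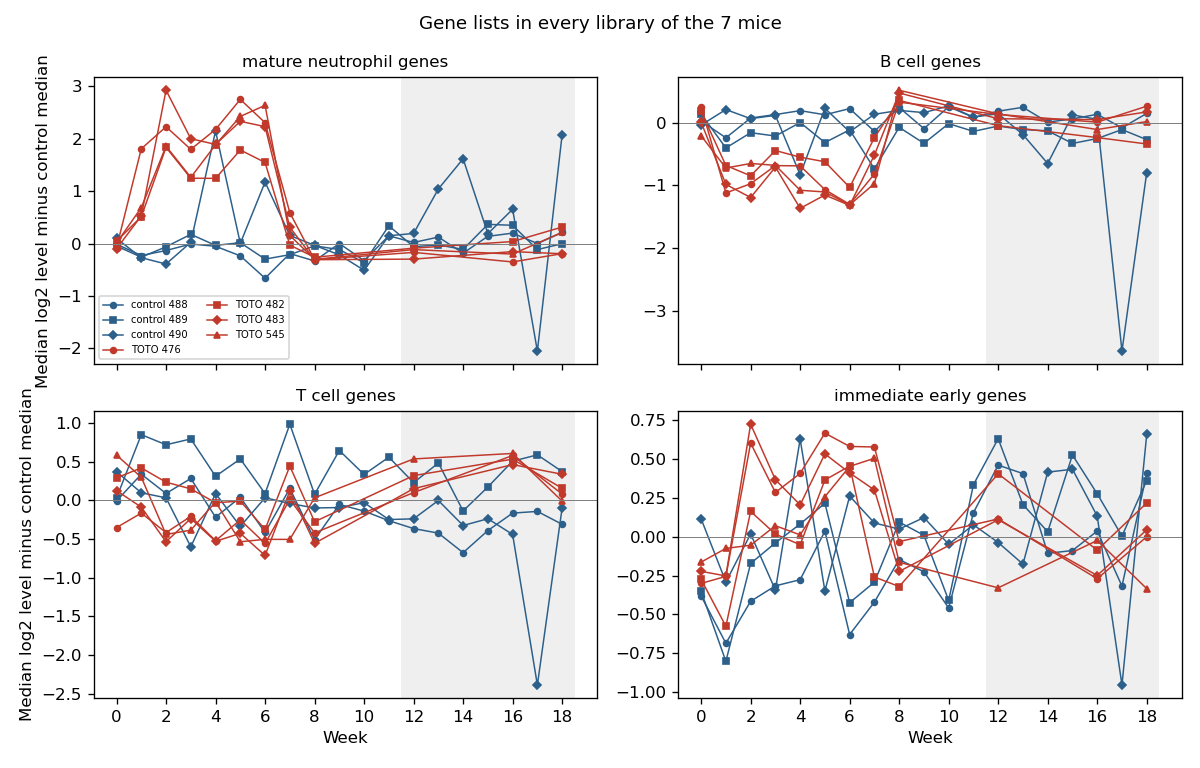
Median log2 level of 4 gene lists in every library of the 7 mice by week, minus the median of all control libraries; the shaded span holds weeks 12 to 18. TOTO mice (red) stand apart for neutrophil and B cell genes at week 6. The neutrophil genes of control mouse 490 (blue) vary widely, at 2.15, 1.17, 1.04 and 1.62 in weeks 4, 6, 13 and 14 and 2.08 in week 18, of which week 18 is in the comparison. Its week 17 library was low in every list shown, at -2.05 for neutrophil, -3.64 for B cell, -2.39 for T cell and -0.95 for immediate early genes. That library is outside the comparison.

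The other lists are given by their medians, and several varied with single mice. Platelet and megakaryocyte genes (22 tested), of which 21 had passed as higher at week 6, had a late median of -0.11. Haemoglobin genes (6 tested) stood at -0.41 and red cell membrane, haem synthesis and other erythroid genes (28 tested) at -0.25, and neither list had a member at an unadjusted p under 0.05. Without control mouse 489 the haemoglobin, red cell and platelet medians were -0.13, -0.11 and 0.04, without control mouse 490 they were -0.73, -0.46 and -0.29, and without TOTO mouse 476 they were -0.25, -0.10 and -0.06. The haemoglobin list had differed by -1.59 before induction and differed by 1.83 with the batch label in the other mice. Interferon response genes (23 tested) stood at -0.28, with TOTO mouse 476 lowest at -0.73, and at -0.12 without that mouse. All 23 lay below zero, as did 6175 of the 10519 genes tested, with 1 at an unadjusted p under 0.05 by limma. Replication-dependent histones (23 tested) stood at -0.20. All 23 lay below zero, 4 at an unadjusted p under 0.05 (limma) and 2 not overlapping, beside 4.96% and 5.41% of all genes. Their median was -0.32 within batch 2022_A, -0.13 without control mouse 489, -0.31 without mouse 490 and 0.02 on the TPM as deposited. Basophil and mast cell genes (13 tested) stood at -0.01, stem and progenitor genes (7 tested) at -0.09 and cell cycle genes (14 tested) at 0.00. Ribosomal protein genes (76 tested) were at 0.03 and glycolysis genes (21 tested, 16 higher at week 6) at -0.15. Cholesterol synthesis and unfolded protein response genes were at -0.01 and -0.02. Sex-linked genes separated the 2 male from the 5 female mice as labelled.

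No protein-coding gene passed. The genes with the smallest p among non-overlapping genes at 5 TPM or more are given as values, leaving out unnamed gene models, pseudogenes, sex-linked genes and human rows. The 10 on the higher side differed by 0.20 to 0.49 and the 10 on the lower side by -0.25 to -0.50. Ms4a4b led the higher side with 31.4, 32.2, 32.3 and 35.3 TPM in TOTO mice and 21.8, 26.1 and 23.6 in controls (difference 0.45 ± 0.08 SE, adjusted p = 0.657). Rpl22l1, a paralog of a large-subunit ribosomal protein, was at 24.1, 21.9, 23.6 and 21.4 TPM against 17.4, 13.1 and 18.6 (difference 0.47 ± 0.12). It had passed as higher at week 6 too, by 0.96.

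Timm10b, of the mitochondrial import machinery, led the lower side with 6.50, 7.06, 6.69 and 6.49 TPM against 8.38, 9.10 and 10.4 (difference -0.42 ± 0.08). Hmgb2, a chromatin protein of dividing and myeloid cells, and Crlf2, the receptor chain for thymic stromal lymphopoietin, differed by -0.34 and -0.39. These 3 had all passed as higher at week 6, by 1.14, 0.93 and 1.22, so their late differences had the opposite sign. Within batch 2022_A the 3 differences were -0.29, -0.31 and -0.26, against 1 control mouse, beyond which batch and group cannot be told apart.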

How the data were processed

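RNA from whole blood, depleted of ribosomal RNA, was made into reverse-stranded libraries per the labels' protocols. Reads were processed with STAR and Salmon on GRCm39 per the submitters' processing notes, which give no versions. The authors deposited 1 table of TPM for 14605 genes, 4 of them human transgene rows, and TPM keeps no sequencing depth. All 298 columns were matched to samples by name. Gene names were matched to GENCODE M39 for 14537 genes.

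Each library was divided by a median-ratio size factor over 13241 genes above 0 in at least 95.0% of libraries, and a pseudocount of 1 was added before log2. Weeks 12, 16 and 18 were averaged within each mouse, and mice, not libraries, were the replicates. The 10519 genes with a mean of at least 1 TPM were tested with limma 3.58.1 in R 4.3.3 (eBayes with trend, Benjamini-Hochberg adjusted p of 0.05). Code was tested on simulated data. Single values used exact two-sided permutation tests over all 35 arrangements, computed in Python 3.11.15 with numpy 2.4.6. The limma p-values set the group difference against the spread between these mice, moderated over genes. The permutation p-values place the observed difference among the 35 arrangements.

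The members and gene lists were chosen with earlier results of these data known, and list medians are descriptions. Genes named were the 10 in each direction that pass with a mean of at least 5 TPM and no overlap, or failing that those with the smallest p; up to 3 members of each list with the smallest p; and a set of transgene and disease genes. The 10 in each direction left out unnamed gene models, pseudogenes, sex-linked genes and human rows. Not all are printed. Genes said to be named for their small number, and Rps13-ps2, were chosen after their values were seen. Within-batch values compare TOTO mice with control mouse 488 alone.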

Additional observations from a re-analysis of the deposited data

Results flagged for a closer look

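Among the 33 genes examined, 1 value stood apart from the other TOTO mice: Osm in mouse 482, at 3.23 rescaled TPM late. Its gap to the next mouse was 0.849 of the group's range, past Dixon's critical value for 4 samples. Chance gives such a gap in about 1 in 20 groups, so 1 among 33 genes is no pattern.

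For 30 of the 33 genes examined the TOTO minus control difference changed between week 6 and the late weeks (limma, adjusted p under 0.05). Of all 10519 genes tested, 21.3% passed for an upward and 30.5% for a downward change, and 199 genes passed on deposited TPM. The genes examined included the transgene rows and known disease genes, so a large share passing was to be anticipated. Others were chosen by their late p or late non-overlap, and the late values also enter the change tested. The share of 30 of 33 is therefore no independent evidence of a change. On the log2 scale the change was upward for Ms4a4b 0.68, Cd8a 0.79, Cr2 1.74, Cd28 0.44, Cd4 0.93 and Fcer2a 2.21. It was downward for Rpl22l1 -0.49, Timm10b -1.55, Hmgb2 -1.27, Crlf2 -1.61, Nlrp3 -1.66, Mmp9 -3.39, Il1b -1.68, Trem1 -2.42, Csf3r -2.31, Osm -2.19, Fos -2.51, Junb -1.38, Dusp1 -2.61, human_BCR_ABL1 -3.07, human_ABL1 -3.38, human_BCR -2.50, Bcr -0.45, Ngp -7.86, Ltf -4.74, Camp -6.01, Lcn2 -5.87, Saa3 -6.25, Mcpt8 -3.03 and Prss34 -2.73. Values are the late difference minus the week 6 difference.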

How the results depend on the processing

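The count of 1 gene in the late weeks became 0 with a pseudocount of 5, without a filter on low values, with batch as a covariate, at week 18 alone and with controls over weeks 12 to 18, also without week 17 of mouse 490. It became 2 with sex as a covariate, at week 12 or week 16 alone and with mouse as a random block over the 21 libraries, and 0 to 8 when 1 mouse was left out. Without control mouse 488 there were 3 genes, all lower (Gm7367, Snora17 and n-R5s104). At week 0 the count of 0 became 37 on deposited TPM, 2 with batch as a covariate and 0 to 2 without 1 mouse. Week 1, where 1202 genes passed, is a later time point and not another processing of week 0. TOTO mice were then without tetracycline, and human ABL1 stood at 1.52, 0.275, 0.452 and 0.444 TPM in mice 476, 482, 483 and 545. The 4874 genes of week 6 became 2841 at a mean TPM of at least 5, where fewer genes were tested, 194 on deposited TPM, 2921 with batch as a covariate and 3395 to 4817 without 1 mouse. The change from week 0 went from 0 to 14 genes and the change from week 6 from 5452 to 199 on deposited TPM. The batch comparison went from 2 genes to 1 with a pseudocount of 5, 5 without a filter and 22 on deposited TPM. The cause was not tested in any of these.

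Among named genes that did not pass late, the sign was reversed, or the value was 0, as follows. At week 12 alone it was -0.0259 for Cr2, 0.12 for human_BCR_ABL1, 0.11 for Ngp, 0.10 for Camp, 0.34 for Saa3 and -0.14 for Fcer2a. At week 16 alone it was 0 for human_BCR_ABL1, -0.0223 for Abl1 and -0.14 for Fcer2a. At week 18 alone it was -0.18 for Mcpt8, -0.14 for Prss34 and 0.0472 for Rps13. With batch as a covariate it was 0.20 for Saa3, -0.0893 for Mcpt8, -0.17 for Prss34 and -0.22 for Fcer2a. On deposited TPM it was 0.13 for Bcr and 0.27 for Rps13, and without haemoglobin, erythroid and Rn7s genes 0.10 for Rps13. With controls over weeks 12 to 18 it was 0.0240 for Bcr, -0.0089 for Ltf, -0.16 for Fcer2a and 0.41 for Rps13, or 0.0525 for Rps13 without week 17 of mouse 490. With the log2 of the mean over weeks it was -0.0204 for Fcer2a, and with size factors over the 21 libraries 0.00059 for Rps13. Without the week 18 library of mouse 490 it was 0.0286 for human_BCR_ABL1, 0.0052 for Camp and -0.13 for Fcer2a.

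When 1 mouse was left out, the difference ran from -0.0744 to 0.0041 for human_BCR_ABL1, -0.45 to 0.838 for Ltf, -0.0703 to 0.0215 for Camp, -0.158 to 0.134 for Mcpt8, -0.0814 to 0.11 for Prss34, -0.0612 to 0.136 for Fcer2a, -0.0448 to 0.0174 for Rps13.

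In all, 791 values for named genes kept their direction and side of the threshold, 48 reversed, 13 were no longer past it and 2 newly were. The change from week 6, the list from other mice, the sum of Rps13 and Rps13-ps2, and the settings on single libraries of mouse 490 were added after seeing the data. No paired analysis was possible because the cohorts share no mouse numbers. With 4 mice against 3, late differences below a median half-width of 0.20 (unadjusted 95% interval) over all genes could not be resolved, and depth is unknown. Larger differences could fail to pass as well. The lowest immediate early gene stood at -0.81 and the highest T cell gene at 0.55, and no adjusted p (limma) in either list was under 0.657. The median half-width was larger in lists described above: 0.58 for mature neutrophil, 0.60 for secondary granule, 0.605 for classical monocyte, 0.39 for T cell and 0.36 for immediate early genes.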

Other observations

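In the 2 weeks after tetracycline returned, both the neutrophil and the B cell lists moved towards the control level. Values are list medians in single libraries relative to the median of all control libraries, for mice 476, 482, 483 and 545 in that order. Mature neutrophil genes, which had stood at 2.31, 1.55, 2.23 and 2.64 at week 6, were at 0.59, -0.03, 0.31 and 0.16 at week 7, when controls 488, 489 and 490 held -0.19, -0.21 and 0.16. At week 8 they were lower again, at -0.31, -0.26, -0.31 and -0.30, against -0.33, -0.04 and -0.03 in controls. B cell genes went from -1.30, -1.03, -1.32 and -1.31 at week 6 to -0.82, -0.24, -0.52 and -0.97 at week 7. At week 8 they stood at 0.33, 0.35, 0.47 and 0.52, above the controls at 0.24, -0.07 and 0.19. By week 12 the B cell list was at 0.13, -0.05, 0.06 and 0.14, within the control values of 0.18, -0.05 and 0.14. These single time points have no test.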
